A study of Mus musculus with 6 samples.

Results

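The imprinted genes H19, Dlk1, Meg3, Cdkn1c, Peg3, Mest, Plagl1, Ndn and Peg10, which act on growth, were followed in cultured bone progenitors of mice labelled as Ift140 mutants and of wild type mice. Ift140 encodes a protein of intraflagellar transport in primary cilia. The imprinted genes were picked out by symbol from the deposited table, and these 9 were all found among its 23622 genes. The group was drawn up because another imprinted growth gene, Igf2, stood higher in the same comparison, so Igf2 is shown as a reference with no test. The values of the 9 genes describe them in that comparison, and how many of them passed the test is not evidence about imprinted genes as a group.

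The samples were 6 RNA-seq libraries of bone progenitors derived from the bone marrow of C57BL/6 mice at 2 weeks of age, 3 of wild type (ctrl) mice, called control here, and 3 of Ift140-/-(cko) mice, called cKO. Both groups were untreated primary cells cultured to generation 3, and the labels number the libraries 2, 3 and 4 in each group. The promoter that drove Cre, the cells in which the gene was deleted and the number of mice behind each library are not stated in the labels. The series is called biologically replicated, but no label ties a library to a mouse or litter, so the p-values measure the spread between these libraries.

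Imprinted genes are expressed mainly from the copy inherited from 1 parent, according to DNA methylation marks laid down in the germ line at imprinting control regions. In the mouse, H19, Meg3 and Cdkn1c are known to be expressed from the maternal copy, and Dlk1, Peg3, Mest, Plagl1, Ndn, Peg10 and Igf2 from the paternal copy. Many imprinted genes are highly expressed in the fetus and placenta and are turned down after birth, and several act on growth, on cell cycle exit or on the fate of mesenchymal precursors. The table sums both copies of each gene, so nothing below bears on which copy was read.

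H19, Meg3 and Mest carry microRNAs within the bounds of the gene. Their mature sequences are shown because they tell what the host RNAs can give rise to, while the mature RNAs themselves were not analysed here. RefSeq (GRCm38.p6) gave 7 mature sequences with 7 different seeds in these genes, all on the strand of the host gene. They are written 5′ to 3′ with the seed, bases 2 to 8, in capitals, and the H19 pair, the miR-770 pair of Meg3 and the Mest pair are as follows.
mmu-miR-675-5p: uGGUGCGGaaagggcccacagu
mmu-miR-675-3p: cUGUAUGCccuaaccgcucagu
mmu-miR-770-5p: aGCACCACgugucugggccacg
mmu-miR-770-3p: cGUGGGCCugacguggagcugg
mmu-miR-335-5p: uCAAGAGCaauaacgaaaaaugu
mmu-miR-335-3p: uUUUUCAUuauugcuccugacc
The hairpin of the Mest pair had a row of its own in the table, Mir335, with 27 reads in the controls and 15 in the cKO libraries. With 1 to 12 reads in a library it did not pass the test described below (limma adjusted p = 0.192). It lies within the bounds of Mest and shares 0 exonic bases with it. Whether these reads came from the hairpin or from other RNA of Mest was not tested.

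Depth and identity of the libraries bear on all that follows. The whole reads recovered from the FPKM values (read number scaled to the length of the gene and the depth of the library) summed to 16465496 to 28904986 per library. Ift140 stood at 3.11, 2.75 and 3.05 FPKM in control 2, 3 and 4 and at 1.72, 1.74 and 1.90 FPKM in cKO 2, 3 and 4. The cKO mean was 60.2% of the control mean (limma adjusted p = 0.0138, 0.0721 without control 4 and 0.0599 without cKO 3). Xist, the RNA that coats the inactive X, averaged 0.0732 FPKM in the controls and 38.2 in the cKO libraries, and reads of 4 Y-linked genes were 5107 (Ddx3y), 3509 (Eif2s3y), 1807 (Kdm5d) and 1210 (Uty) in the controls against 1, 0, 0 and 0. The controls therefore carried the pattern of male and the cKO libraries that of female mice, and sex and genotype cannot be told apart in any value below. Osteoblast markers had summed levels of 3044 to 3447 FPKM in the controls and 2499 to 3709 in the cKO libraries, nearly all from Col1a1. Macrophage markers had 1629 to 1790 and 1786 to 2502 FPKM, so the cultures held macrophage RNA beside that of bone progenitors. The largest sums of the marker lists were those of smooth muscle, mostly from Acta2 and Tagln. They were 4690 to 5415 FPKM in the controls and 4146 to 4753 in the cKO libraries. None of these 4 markers passed the test, though Tagln was lower in every cKO library than in every control.

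The 9 genes spanned the range of expression in these cells. Levels per length, as means over the 6 libraries, ran from Mest at 121 FPKM and H19 at 89.0, which overlapped each other, to Plagl1 at 23.9 and Ndn at 18.5, which also overlapped. Meg3 at 2.60, Peg10 at 2.28 and Peg3 at 2.08 FPKM came next with neighbours not separated, and Cdkn1c at 0.324 and Dlk1 at 0.217 FPKM closed the order, again overlapping. Mest was above 98.5% of all genes in the table and Dlk1 above 35.1%. Dlk1 and Cdkn1c, with 8 to 58 reads in a library, lay under the mean of 0.5 FPKM required for the test, so 7 of the 9 were tested.

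**Figure D1:**
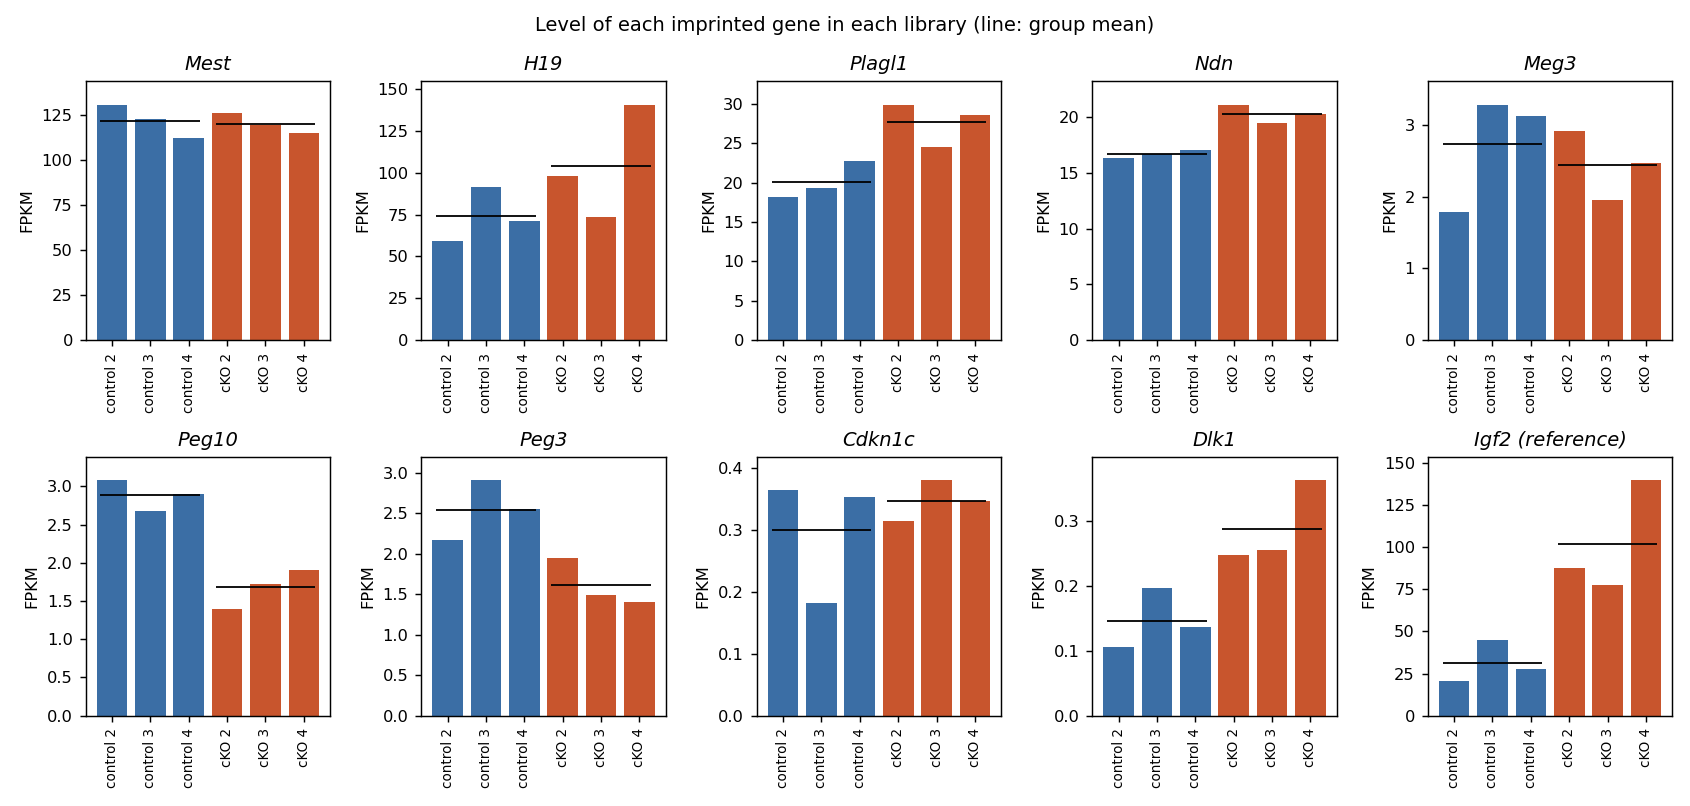
Level of each of the 9 imprinted genes, and of Igf2 as a reference, in each of the 6 libraries. Each panel has its own linear FPKM axis from 0, a bar stands for a library (blue, control; orange, cKO) and a line for the group mean. The groups are apart in Plagl1, Ndn, Peg10, Peg3 and Dlk1, and in the reference Igf2, and overlap in Mest, H19, Meg3 and Cdkn1c. Of all tested genes, 35.7% had groups that were apart.

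Among the 7 tested genes, Ndn rose and Peg10 fell, and the other 5 did not pass the test. The test was limma on log2(FPKM + 1) with Benjamini-Hochberg adjustment over 13326 genes at 0.05, and fold changes are on that scale, which understates those of low genes. Over all tested genes 5.04% were called higher and 2.57% lower (7.61% in either direction), against 1 and 1 of the 7. The median log2 fold change was -0.02 over the 7 genes and -0.00 over all tested genes. Of all calls 66.3% were rises, a share that was 54.6% after median scaling, 52.1% after quantile normalization and 46.7% after correction for GC content. In these bulk libraries fewer cells of a type and less RNA per cell cannot be told apart.

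Ndn encodes necdin, a MAGE-family protein that restrains proliferation and binds E2F and p53. It lies at chr7:62346569-62350262 on the plus strand (GRCm38, gene bounds of GENCODE vM21). Ndn stood at 16.4, 16.7 and 17.1 FPKM in control 2, 3 and 4 and at 21.1, 19.5 and 20.3 FPKM in cKO 2, 3 and 4. Every cKO library was above every control library, and within each group the 3 libraries lay close together. The mean went from 16.7 ± 0.365 to 20.3 ± 0.815 FPKM (SD, n = 3 each), a ratio of 1.22. The log2 fold change was 0.27 (SE 0.05, limma adjusted p = 0.0364). That call was lost without any single library, with limma adjusted p between 0.0577 and 0.119, and also after median scaling (0.0521), after quantile normalization (0.0690) and with no trend in the variance prior (0.0503).

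Peg10, a gene derived from a retrotransposon and needed for the mouse placenta, lies at chr6:4747306-4760517 on the plus strand. It stood at 3.08, 2.68 and 2.90 FPKM in the controls and at 1.40, 1.73 and 1.91 FPKM in the cKO libraries, from 160 to 414 reads a library. The highest cKO library was well below the lowest control. The mean fell from 2.89 ± 0.199 to 1.68 ± 0.260 FPKM (SD, n = 3 each), which is 58.1% of the control. The log2 fold change was -0.54 (SE 0.09, limma adjusted p = 0.0229), and the call was lost without control 2, control 4, cKO 2 or cKO 3 (limma adjusted p 0.0540 to 0.0983) and kept without control 3 or cKO 4. It was also lost with no filter on low values (limma adjusted p = 0.0628).

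Plagl1 and Peg3, both zinc finger genes, were separated between the groups but did not pass the test. Non-overlapping groups were common in these libraries, at 35.7% of the tested genes, and 4 of the 7 genes showed them. Plagl1, also called Zac1, encodes a transcription factor that halts the cell cycle and that acts in the mouse on other imprinted genes. It lies at chr10:13060504-13131694 on the plus strand. Its levels were 18.2, 19.3 and 22.7 FPKM in the controls and 29.9, 24.5 and 28.6 FPKM in the cKO libraries, with the lowest cKO library just above the highest control. The means were 20.1 ± 2.36 and 27.7 ± 2.82 FPKM (ratio 1.38), with a log2 fold change of 0.44 (SE 0.11, limma adjusted p = 0.0540, between 0.0226 and 0.142 over 19 alternatives and under 0.05 in 3).

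Peg3, whose product acts in p53 and TNF signalling and in maternal behaviour in the mouse, lies at chr7:6703892-6730431 on the minus strand. It stood at 2.17, 2.91 and 2.55 FPKM in the controls and at 1.94, 1.49 and 1.40 FPKM in the cKO libraries. The highest cKO value was close under the lowest control value. The means were 2.54 ± 0.367 and 1.61 ± 0.290 FPKM, so that the cKO mean was 63.5% of the control. The log2 fold change was -0.44 (SE 0.11, limma adjusted p = 0.0645, between 0.0223 and 0.181 over 19 alternatives and under 0.05 in 3).

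The promoters of Ndn, Plagl1 and Peg3 are shown because the groups were separated in these genes and because their content of CpG, the dinucleotide that carries the methylation marks of imprinting, differs. The 250 bases before the RefSeq (GRCm38.p6) start of Ndn (chr7:62348027-62348276, plus strand), Plagl1 (chr10:13090582-13090831, plus strand) and Peg3 (chr7:6730420-6730669, minus strand) are shown 5′ to 3′ on the strand of the gene, with each CG in capitals.
Ndn: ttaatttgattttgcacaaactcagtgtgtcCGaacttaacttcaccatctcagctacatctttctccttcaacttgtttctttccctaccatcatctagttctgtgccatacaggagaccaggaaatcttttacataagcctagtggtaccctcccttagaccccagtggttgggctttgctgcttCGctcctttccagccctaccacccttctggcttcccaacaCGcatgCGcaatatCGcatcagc
Plagl1: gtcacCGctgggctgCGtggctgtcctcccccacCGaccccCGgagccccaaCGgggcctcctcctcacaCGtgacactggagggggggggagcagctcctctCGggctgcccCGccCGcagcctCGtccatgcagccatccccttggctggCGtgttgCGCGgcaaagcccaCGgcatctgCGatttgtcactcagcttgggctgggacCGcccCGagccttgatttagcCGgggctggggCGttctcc
Peg3: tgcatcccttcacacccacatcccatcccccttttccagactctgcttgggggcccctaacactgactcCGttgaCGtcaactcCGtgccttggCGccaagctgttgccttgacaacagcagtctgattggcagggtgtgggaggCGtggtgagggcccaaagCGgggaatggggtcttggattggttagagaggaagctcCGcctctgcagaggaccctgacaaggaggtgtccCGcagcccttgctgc
Ndn has 5 CG, more than 44.4% of the 32851 promoters in the RefSeq table, Peg3 has 8 (57.0%) and Plagl1 has 19 (80.3%). CG occurs in 92.1% of all promoter windows of that length. On either strand the letters TGCCGC, the core that ZFP57 binds when methylated, occur once in the Plagl1 window and in 8.68% of all windows, and they are not in the windows of Ndn and Peg3. The letters GCCATNTT, the core of the YY1 motif, occur in 3.91% of all windows and in none of these 3. The windows of Ndn and Plagl1 lie within the gene bounds given above. No window was drawn to cover an imprinting control region, so letters missing from a window may occur in such a region. A match of letters is not a bound site, and methylation was not measured in these samples.

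The maternally expressed long RNAs H19 and Meg3 did not pass the test. H19, at chr7:142575529-142578143 on the minus strand, lies 72.6 kb from Igf2 and is known to share its control region and enhancers. Its levels were 59.2, 91.6 and 71.0 FPKM in the controls and 98.1, 73.4 and 141 FPKM in the cKO libraries. Control 3 was above cKO 3, so the groups overlapped, and cKO 4 stood highest. The means were 73.9 ± 16.4 and 104 ± 34.2 FPKM, with a log2 fold change of 0.46 (SE 0.25, 95% interval -0.15 to 1.07, limma adjusted p = 0.283).

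As the reference, Igf2 stood at 20.7, 45.2 and 27.9 FPKM in the controls and at 87.9, 77.5 and 140 FPKM in the cKO libraries. Within each group the order of the libraries was the same for H19 and Igf2, with control 3 and cKO 4 highest. Across the 6 libraries Pearson's r between H19 and Igf2 on the log2 scale was 0.85, and 0.94 after each group was centred on its mean, as a description of libraries that share their depth and preparation. Summed osteoblast markers were likewise highest in control 3 (3447 FPKM) and cKO 4 (3709 FPKM) within their groups, but the order of the other libraries differed. Among the single osteoblast markers, Alpl and Sp7 followed the order of H19 and Igf2 in both groups and the others did not. The part of the culture's make-up in the order shared by H19 and Igf2 was not tested.

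**Figure D2:**
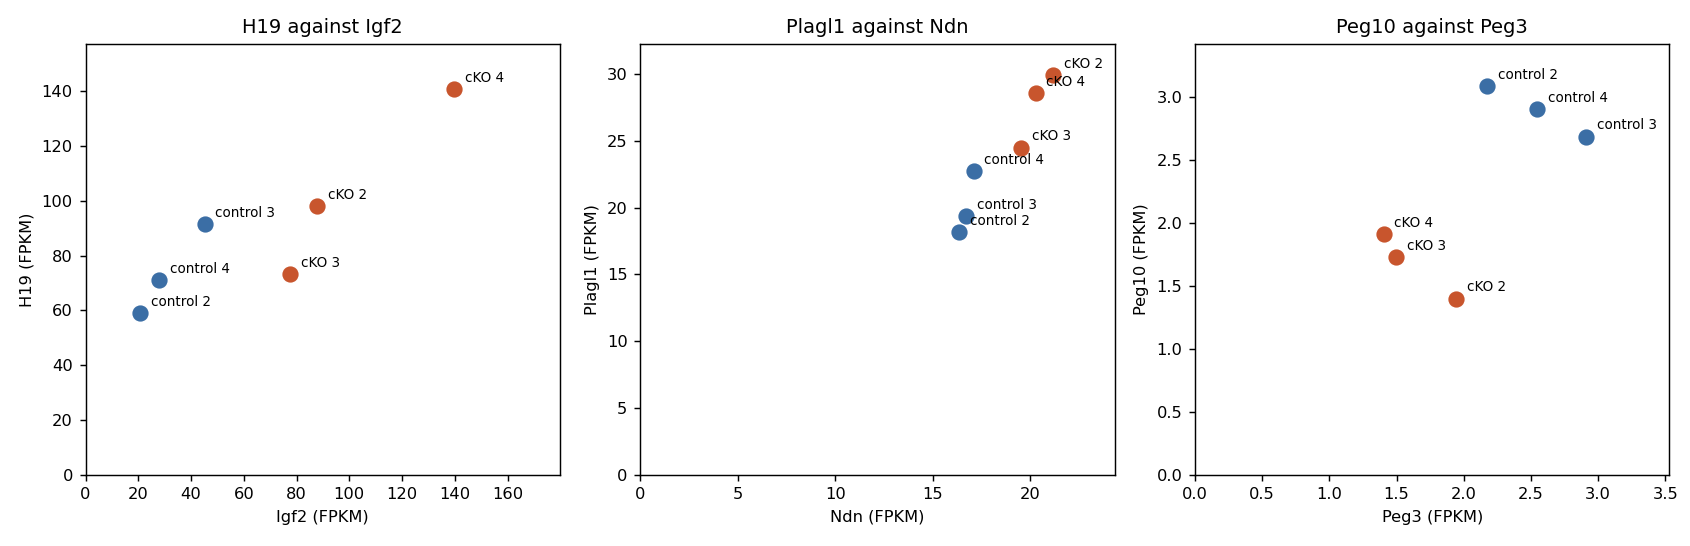
H19 against Igf2, Plagl1 against Ndn and Peg10 against Peg3, with FPKM on both linear axes from 0 and a point for each library (blue, control; orange, cKO). H19 is highest in the libraries of each group where Igf2 is highest, Plagl1 and Ndn are both higher in all cKO libraries, and Peg10 and Peg3 run in opposite order within each group.

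Meg3, a polyadenylated RNA with tumour-suppressor activity that is expressed opposite Dlk1, lies at chr12:109541001-109571726 on the plus strand. It stood at 1.80, 3.29 and 3.13 FPKM in the controls and at 2.92, 1.95 and 2.48 FPKM in the cKO libraries. The lowest library of all was a control, and the groups overlapped. The log2 fold change of -0.10 (SE 0.19, 95% interval -0.54 to 0.34, limma adjusted p = 0.762) leaves room for a difference of either sign. Rian, the next maternally expressed RNA at 32.2 kb, averaged 1.53 and 1.16 FPKM and did not pass the test either (limma adjusted p = 0.417).

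Dlk1, at chr12:109452823-109463336 on the plus strand, encodes a membrane protein of the Delta family that holds preadipocytes and skeletal precursors back from maturing. It was at the edge of detection, with 12, 24 and 16 reads in the controls and 24, 26 and 58 reads in the cKO libraries. In FPKM these were 0.105, 0.197 and 0.136 against 0.247, 0.255 and 0.363, so that the groups did not overlap and the means were 0.146 ± 0.0465 and 0.288 ± 0.0646. With no filter on low values Dlk1 did not pass (log2 fold change 0.17, SE 0.05, limma adjusted p = 0.165). Its paralogue Dlk2 averaged 2.47 ± 0.489 and 4.04 ± 0.558 FPKM and did not pass the test (limma adjusted p = 0.0534).

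Cdkn1c, at chr7:143458339-143461050 on the minus strand, encodes p57, the imprinted inhibitor of cyclin-dependent kinases, and had 8 to 20 reads in a library. Its levels of 0.365, 0.182 and 0.354 FPKM in the controls and 0.314, 0.381 and 0.347 FPKM in the cKO libraries overlapped. With no filter its log2 fold change was 0.05 (SE 0.07, limma adjusted p = 0.728), which at this depth does not show a difference in either direction. The related inhibitors that are not imprinted were far more abundant per length, Cdkn1a (p21) at 165 ± 16.1 and 143 ± 10.2 FPKM and Cdkn1b (p27) at 10.05 ± 0.840 and 9.57 ± 0.589 FPKM, and neither passed the test.

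Mest, also called Peg1, encodes an enzyme of the alpha/beta hydrolase fold that is abundant in fetal mesoderm, and it was the most abundant of the 9. It lies at chr6:30723547-30748465 on the plus strand. Its levels were 131, 123 and 112 FPKM in the controls and 126, 120 and 115 FPKM in the cKO libraries, and the groups lay within each other. The log2 fold change was -0.02 (SE 0.08, limma adjusted p = 0.903), and its 95% interval of -0.20 to 0.16 bounds the difference more tightly than those of H19 and Meg3, the other tested genes whose groups overlapped. Mest shares 912 exonic bases with Copg2 on the opposite strand, and whether reads were counted by strand is not stated, so some reads of the pair cannot be assigned. Copg2 averaged 13.3 ± 0.784 and 12.0 ± 0.742 FPKM.

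**Figure D3:**
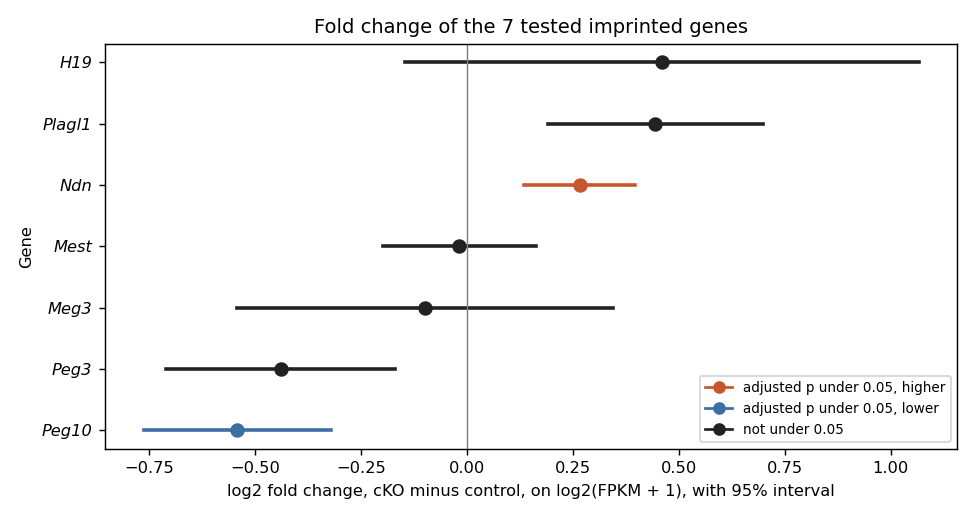
Log2 fold change of the 7 tested imprinted genes, cKO minus control on log2(FPKM + 1), with the gene on the vertical axis, a point for the estimate and a bar for its 95% interval. Ndn at 0.27 (orange) passed the test as higher and Peg10 at -0.54 (blue) as lower. The widest interval is that of H19, from -0.15 to 1.07.

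The neighbouring imprinted genes are given cluster by cluster. Imprinted genes less than 3 Mb apart were taken as a cluster, a distance chosen after the values were seen. In the cluster of Peg10, 1 of 6 tested genes fell. Sgce starts 0.1 kb from Peg10 on the opposite strand and is paternally expressed from the same control region, and it averaged 5.69 ± 0.892 and 5.45 ± 0.0678 FPKM (limma adjusted p = 0.801). Zim1, a maternally expressed gene 7.4 kb from Peg3, averaged 1.14 ± 0.191 and 1.05 ± 0.196 FPKM (limma adjusted p = 0.752).

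In the cluster of Ndn, Peg12 rose too, while Atp10a, Ube3a and Snrpn did not pass. Mkrn3, a paternally expressed gene between Ndn and Peg12, was too low to be tested. It stood at 0.292, 0.273 and 0.302 FPKM in the controls and 0.526, 0.348 and 0.514 FPKM in the cKO libraries (46 and 76 reads in all). Its groups did not overlap, as in 35.7% of the tested genes. Peg12, a paternally expressed homologue of the Wnt regulator Frat1 at chr7:62461871-62464510 on the minus strand and 111.6 kb from Ndn, stood at 3.29, 3.44 and 3.37 FPKM in the controls and at 5.98, 5.79 and 6.35 FPKM in the cKO libraries. The 2 groups were far apart relative to their spread. The log2 fold change was 0.69 (SE 0.06, limma adjusted p = 0.00527), and the gene passed in 18 of 19 alternatives. In the cluster that holds H19 and Cdkn1c, Slc22a18, a maternally expressed transporter gene 12.7 kb from Cdkn1c, rose from 1.39 ± 0.319 to 2.57 ± 0.336 FPKM (limma adjusted p = 0.0361). Its call was kept without control 3 and lost without any other library (limma adjusted p 0.0725 to 0.124), with correction for GC content (0.0893) and with no filter (0.0867). The other tested genes in the cluster of H19 and Cdkn1c, the reference Igf2 apart, did not pass. None of the 3 tested genes in the Dlk1 and Meg3 cluster passed.

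**Figure D4:**
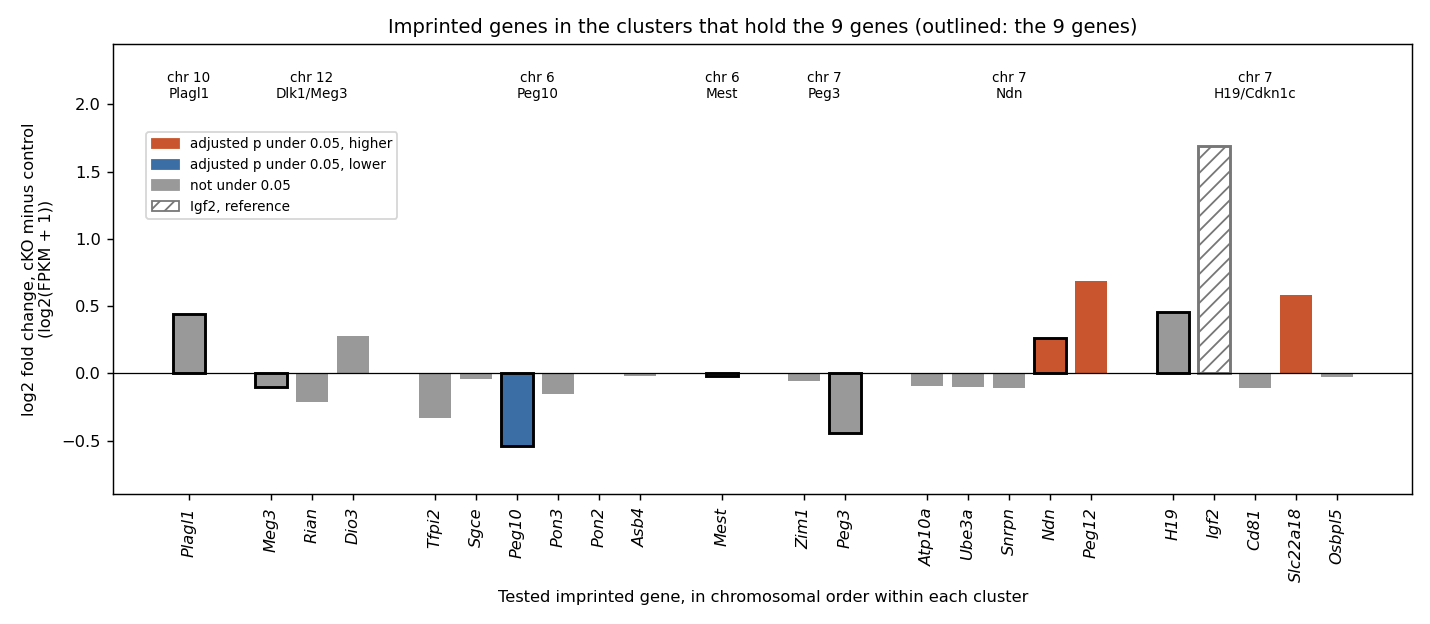
Log2 fold change (vertical axis, cKO minus control on log2(FPKM + 1)) of each tested imprinted gene in the clusters that hold the 9 genes, in chromosomal order. The 9 genes are outlined and colour marks the test, with Igf2 hatched as a reference. Peg12 at 0.69 stands beside Ndn at 0.27 among the tested genes, whereas Peg10 at -0.54 has Sgce at -0.04 next to it.

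The nearest 2 tested genes on each side of every one of the 9, imprinted or not, came to 30 genes apart from the 9 and Igf2. Of these, 4 were higher and 1 was lower, against 5.04% and 2.57% of all tested genes. Besides Peg12 and Slc22a18, Tssc4 (387.2 kb from Cdkn1c) rose from 21.6 ± 0.471 to 26.6 ± 0.367 FPKM (limma adjusted p = 0.0236), and the transcription factor gene Klf13 (1536.1 kb from Ndn) rose from 14.5 ± 1.46 to 21.9 ± 1.77 FPKM (limma adjusted p = 0.0214). The carboxypeptidase gene Cpa4 (131.1 kb from Mest) fell from 1.19 ± 0.121 to 0.613 ± 0.0544 FPKM (limma adjusted p = 0.0306). After correction for GC content the limma adjusted p of Tssc4 was 0.525. Leaving out a library ended the call of Tssc4 for control 4 and each cKO library (limma adjusted p 0.0638 to 0.110). It ended that of Klf13 for control 4, cKO 3 and cKO 4 (0.0622 to 0.0835) and that of Cpa4 for every library but control 3 (0.0675 to 0.121), and with no filter Cpa4 was at 0.0520.

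The other imprinted genes are counted against the 5.04% of all tested genes called higher and the 2.57% called lower. Of 25 other paternally expressed genes, 20 were in the table, 12 were tested, 1 was higher (Peg12) and none was lower, with a median log2 fold change of -0.04. Of 30 genes listed as maternally expressed, 27 were in the table, 18 were tested, 3 were higher and none was lower, with a median of -0.03. That list takes in genes known as imprinted in only some tissues, and imprinting was not measured in these cells. Gnas, the gene of the stimulatory G protein alpha subunit, rose from 2.69 ± 0.379 to 4.78 ± 0.409 FPKM (limma adjusted p = 0.0160, 0.0531 to 0.0708 without control 4, cKO 2 or cKO 3). These values cover all exons annotated to Gnas (11186 bases), so its different transcripts cannot be told apart. Slc22a2, a transporter gene beside Igf2r, rose from 0.821 ± 0.148 to 1.71 ± 0.308 FPKM (limma adjusted p = 0.0344, kept without control 3 and 0.0548 to 0.115 without each other library, 0.0778 with no filter). The imprinted adaptor gene Grb10, which restrains insulin and IGF1 receptors, averaged 45.1 ± 3.49 and 38.2 ± 1.28 FPKM and did not pass the test (limma adjusted p = 0.0925).

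Among 22 factors that maintain imprints or DNA methylation, all were in the table, 20 were tested, none was higher and 1 was lower, where 7.61% of all tested genes were called. Eed, a core subunit of the Polycomb complex that methylates histone H3, fell from 11.1 ± 0.265 to 8.50 ± 0.451 FPKM (limma adjusted p = 0.0222, 0.0551 to 0.0991 without control 4 or any cKO library). Zfp57, the zinc finger protein that protects imprints in the mouse embryo, averaged 4.34 ± 0.174 and 3.72 ± 0.283 FPKM and did not pass the test (limma adjusted p = 0.144). Among 6 receptors and RNA-binding partners of IGF2 none passed. The smallest p-values were those of Igf2bp2, which binds Igf2 RNA (log2 fold change -0.23, limma adjusted p = 0.165), and of the insulin receptor gene Insr (-0.12, limma adjusted p = 0.313).

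Of 19 genes whose proteins are related to those of the 9, 15 were tested, 3 were higher and 1 was lower, where 7.61% of all tested genes were called. Rtl8a and Rtl5, derived like Peg10 from retrotransposons, rose from 12.2 ± 0.775 to 17.5 ± 1.84 FPKM and from 2.94 ± 0.0873 to 3.96 ± 0.109 FPKM. Magee1, of the MAGE family like Ndn, rose from 8.39 ± 0.308 to 10.6 ± 0.413 FPKM, and Mageh1 of the same family fell from 5.58 ± 0.260 to 4.06 ± 0.192 FPKM. All 4 lie on the X chromosome, and the groups also differ in their male and female patterns, whose part was not tested. The limma adjusted p was 0.0268 for Rtl8a, 0.0240 for Rtl5, 0.0296 for Magee1 and 0.0213 for Mageh1. The calls of Rtl8a and Rtl5 were kept without control 3 alone, that of Magee1 without control 2 alone, and that of Mageh1 without control 2, control 3 or cKO 4. Without the other libraries the limma adjusted p was 0.0510 to 0.120. With correction for GC content the log2 fold change of Rtl8a went from 0.49 to 0.25 (limma adjusted p = 0.194), with no filter Rtl8a was at 0.0533 and Rtl5 at 0.0611, and with voom Mageh1 was at 0.0515.

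The profiles of the 7 tested genes over the 6 libraries were compared on the log2 scale. Plagl1 and Ndn ran together with r = 0.96, and 0.90 after centring each group on its mean. Peg10 and Peg3 had r = 0.67 over all libraries and -0.95 after centring, since the library with the lower Peg10 in a group had the higher Peg3. The profiles most like those of the called genes were Ebf3 (r = 0.99) and Msantd2 (0.99) for Ndn, and Traf5 (0.996) for Peg10. With 6 libraries such values are easily reached, and r was above 0.95 with Ndn for 111 and with Peg10 for 126 of 11725 genes. For Plagl1 the closest were Acvr2b and Emid1, for Peg3 Zc3h15 and Ap1ar, for H19 Coa3 and Cacnb3, for Meg3 Uchl5 and Tmem47, and for Mest mt-Atp8 and Lsm2.

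Some marker genes of other cell types were separated between the groups, as Ndn, Peg10, Plagl1 and Peg3 were, and others overlapped. Such separation was seen in 35.7% of all tested genes. The 8 granulocyte markers summed to 5.71 to 42.6 FPKM in the controls and 85.7 to 263 FPKM in the cKO libraries, and none of the 5 tested passed. The 6 endothelial markers summed to 20.5 to 26.6 FPKM against 15.0 to 17.7 FPKM, with Emcn called lower (limma adjusted p = 0.0323, 0.0589 to 0.0896 without any single library and 0.0812 with no filter). The chondrocyte markers, nearly all from Col2a1, summed to 177 to 233 FPKM against 255 to 386 FPKM, and none of the 3 tested passed. Sox9 also had a higher cKO mean, at 2.82 and 3.83 FPKM with overlapping groups. Matn3 averaged 1.12 and 0.826 FPKM and Acan 0.342 and 0.208 FPKM, and Col9a1 had 4 and 2 reads. The adipocyte markers summed to 18.8 to 21.05 FPKM against 21.1 to 24.3 FPKM. Most of that sum was Pparg, at 16.0 and 16.2 FPKM with overlapping groups, and Adipoq was called higher, at 0.196 and 1.88 FPKM (limma adjusted p = 0.00349). Bglap of the osteoblast markers rose from 0.848 to 3.06 FPKM (limma adjusted p = 0.0327, 0.0510 to 0.0952 without any library but control 2). With a pseudocount of 0.1, with correction for GC content and with no filter its limma adjusted p was 0.0532, 0.0532 and 0.0792. Bglap was the 1 called of 6 tested osteoblast markers, whose sums overlapped between the groups. Kitl of the stromal progenitor markers rose from 5.76 to 13.2 FPKM (limma adjusted p = 0.0184, 0.0839 without control 4 and 0.0528 without cKO 4). It was the 1 called of 8 tested stromal progenitor markers, whose sums overlapped (284 to 426 FPKM against 365 to 461 FPKM). Pdgfra, Lepr, Cxcl12 and Eng also had higher means in the cKO libraries, and Pdgfrb, Thy1, Nt5e and Ly6a had lower ones. Skeletal muscle markers summed to 1.01 to 1.78 FPKM in the controls and 0.361 to 0.369 FPKM in the cKO libraries. Most of that sum was Des, which did not pass the test (limma adjusted p = 0.0600). Myod1, Myog and Myf5 were at the edge of detection, with 16, 10 and 8 reads over all controls and 0 in the cKO libraries. The part of these cells in the levels of the 9 genes was not tested.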

How the data were processed

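Libraries of poly-A RNA were made with a NEBNext Ultra kit, per the labels' protocols. The authors deposited FPKM in 1 table of 6 columns. The submitters' processing notes list HTSeq 0.6.0 and DESeq2 1.10.1 and give them no role. Which aligner, build and strandedness were used is not given in the sources used here. The totals behind the FPKM were not whole numbers of reads.

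Symbols and coordinates were taken from GENCODE vM21 (GRCm38), in which 112 identifiers had no symbol, and sequences from RefSeq (GRCm38.p6), which has promoter entries for 6 of the 9 genes. Whole reads were recovered from the FPKM steps for 23427 of 23427 genes with a value (100.0%), and gene lengths equalled the GENCODE exon union for 77.7%. For the other genes the smallest whole numbers that fitted were taken (tolerance 1e-06). Their reads can therefore be a fraction of the true number. In R 4.3.3, limma 3.58.1 with an intensity trend compared cKO with control on log2(FPKM + 1), for the 13326 of 23622 genes whose mean FPKM was 0.5 or more, without covariates. The threshold was a Benjamini-Hochberg adjusted p of 0.05, over all tested genes and not over the 9. An exact permutation test of 3 against 3 libraries cannot go below 0.1 and was not used. The main fit was tried on simulated reads with the same spread set for every gene, so that trial does not show the error rate in these libraries.

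Alternatives were pseudocounts of 0.1 and 0.5, no filter, a minimum of 2 FPKM, median scaling, quantile normalization, no trend, library quality weights, voom on the recovered reads, correction for GC content, a replicate block alone and with that correction, X and Y genes left out, and each library left out. The 9 genes and the other lists were chosen with earlier results of these data known. Text names the 9 genes, the genes of each list past the threshold or the 2 with the smallest p, their nearest neighbours and the closest profiles (1 of which is not reported here), and Ift140 with the sex-linked genes as checks. Genes named outside this rule, chosen after their values were seen, are Dlk2, Cdkn1a, Cdkn1b, Copg2, Grb10, Zfp57, Mkrn3, Atp10a, Ube3a, Snrpn, Mir335 and the marker genes.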

Additional observations from a re-analysis of the deposited data

How the results depend on the processing

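The fold changes of 42 named genes were followed through the alternatives, leaving out Igf2, the closest profiles, Atp10a, Ube3a, Snrpn and the markers that did not pass. Of the 42, 24 passed the test and none of these turned direction under any of the 19 alternatives it was fitted in. The calls depended on the settings. Against 672 genes higher and 342 lower, of which 1 and 1 were among the 9, correction for GC content gave 349 higher, with 2 of the 9 higher. Library quality weights gave 1765 higher and 1378 lower, with 2 of the 9 lower. Voom gave 1102 higher, with 2 of the 9 higher and 2 lower. Without a filter 327 were higher and 184 lower, with 0 of the 9 lower. Quantile normalization gave 560 lower, with 0 of the 9 higher and 2 lower. A minimum of 2 FPKM left 10071 genes, with 2 of the 9 higher, and median scaling and a fit with no trend gave 0 of the 9 higher. Dlk1 and Cdkn1c were fitted only with no filter, so every other count is out of the 7 tested genes. The shares called over all genes are not given for each fit, so nothing is read from these counts. Without single libraries, 45 to 626 genes were higher and 26 to 374 lower, the fewest without control 4, with 0 of the 9 higher in all 6 fits and 0 to 1 lower.

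The replicate numbers were not taken to pair the libraries, since same-numbered libraries deviated from their group means with correlations of -0.0394, -0.0543 and 0.0346. The fit with a replicate block gave 42 higher and 22 lower, and with the correction for GC content 1 and 2, with 0 of the 9 higher and 0 lower in both.

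Among the 42, the sign changed for 4 genes, none of which passed. With the correction for GC content, with or without the block, Mest was at 0.0111 and Sgce at 0.0192, and with quality weights Mest was at 0.0613. Without single libraries Mest ran from -0.0764 to 0.0348, Meg3 from -0.296 to 0.0127, Sgce from -0.127 to 0.0589 and Zim1 from -0.137 to 0.00926. The cause of these shifts was not tested. Depth limits Dlk1 and Cdkn1c, with 8 to 58 reads a library.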
